A study of Mus musculus with 48 samples.

Results

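The lysosomal glycosidases described here are 8 mouse enzymes that remove sugars from glycans inside the lysosome: Hexa, Glb1, Gaa, Gla, Gusb, Man2b1, Neu1 and Fuca1. They were taken by gene symbol from the platform annotation, with 1 probe per gene, the probe with the highest mean over all 48 arrays. They are 8 of the 20738 genes named on the array and have 19 of its 31465 named features. Hexa, Glb1, Gla, Man2b1 and Neu1 had 1 feature each. Gusb had 10 features, whose means lay close together between 9.50 and 9.94 on the log2 scale. Gaa had 2 features, with means of 12.35 for the one used and 5.61 for the other. Fuca1 also had 2, with means of 10.26 for the one used and 2.90, near the background of the array, for the other. All 8 genes passed the filter on dim genes in every comparison, so no member was lost.

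Glycans of glycoproteins, glycolipids and proteoglycans that reach the lysosome are taken apart one terminal sugar at a time, and each enzyme of the set removes its own sugar in its own linkage. Most of these enzymes carry a mannose-6-phosphate tag that mannose-6-phosphate receptors recognise on the way to the lysosome, and many of their genes are known targets of TFEB, a transcription factor of lysosome formation. Inherited loss of such an enzyme causes a storage disease, among them Tay-Sachs disease for HEXA, Pompe disease for GAA, Fabry disease for GLA and sialidosis for NEU1 in humans. In the lung, alveolar type II cells keep surfactant in lamellar bodies, organelles related to lysosomes.

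The study exposed cultured cells of C57Bl/6J mice to an extract of e-cigarette vapour (ECVE) and measured total RNA on single-colour Agilent arrays. The 6 groups of 8 arrays were AECII, the abbreviation commonly used for alveolar epithelial type II cells, with 18 mg extract, with 0 mg extract and as control, and PASMC, commonly pulmonary artery smooth muscle cells, in the same 3 conditions. The extract was used at 15% for 24 h and was made from a liquid with 18 or 0 mg/ml nicotine, so the 0 mg groups received extract too, while the controls are labelled as room air. AECII were kept in 10% serum and exposed 24 h after isolation, whereas PASMC were isolated with iron particles, grown in 15% serum and used after a passage. The design names 8 mice, but the labels do not tie arrays to mice, so p-values measure the spread between arrays, which may be partly technical.

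The arrays followed their labels in most markers of the cell types. Acta2, a smooth muscle actin, lay between 14.33 and 15.46 in PASMC arrays and between 10.93 and 12.83 in AECII arrays, and Sftpc, the surfactant protein of type II cells, lay between 13.80 and 14.86 in AECII. Of 9 type II cell markers tested between the controls, 8 were called as higher in AECII and 1 as lower: Etv5, named after its values were seen, averaged 7.47 in AECII controls and 9.73 in PASMC controls. Markers of other cell types were present in both cultures. Of the 24 PASMC arrays 11 had Sftpc above 6, which were 4 with 18 mg extract, 4 with 0 mg extract and 3 controls, and part of the PASMC results is also given without them. The mean of 10 macrophage markers ranged from 4.73 to 8.10 in PASMC with 18 mg extract, from 4.64 to 8.03 with 0 mg extract and from 4.87 to 8.05 in controls. Of these markers Adgre1, Ptprc and Cd68 were near background in all 3 PASMC groups, while Marco and Lyz2, genes of lung macrophages, were not. The mean of 6 fibroblast markers ranged from 9.19 to 11.64 over the PASMC arrays. In AECII controls the mean ranged from 5.23 to 7.39 for the macrophage markers and from 6.88 to 7.52 for the fibroblast markers. There 6 of 10 macrophage, 4 of 6 fibroblast and 8 of 10 smooth muscle markers were not near background. The mean of 4 airway epithelial markers ranged from 7.97 to 9.25 over the AECII arrays. One of them, Scgb1a1, a secretory protein of airway club cells named here after its values were seen, averaged 15.76 with 18 mg extract, 15.75 with 0 mg extract and 15.73 in AECII controls. Slc34a2, a type II cell marker, was near background there.

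The regions in front of the genes are shown for the members that hold the core of the TFEB site and for Neu1, the member with the largest difference between PASMC groups. Sequences are those of RefSeq on GRCm38.p6 and run from 250 bases before to 50 bases after the gene start in RefSeq's gene table, with each CACGTG in capitals. Of the 8 members 7 had such a window, and CACGTG, which reads the same on both strands, was present in 3 of these. The window listed for Man2b1 begins 289 bases after that gene start, so the region before it was not searched. Among all 32851 windows of this length 7.15% held it. Glb1 had it once, 48 bases before the gene start (chr9:114400828-114401127, plus strand).
Glb1: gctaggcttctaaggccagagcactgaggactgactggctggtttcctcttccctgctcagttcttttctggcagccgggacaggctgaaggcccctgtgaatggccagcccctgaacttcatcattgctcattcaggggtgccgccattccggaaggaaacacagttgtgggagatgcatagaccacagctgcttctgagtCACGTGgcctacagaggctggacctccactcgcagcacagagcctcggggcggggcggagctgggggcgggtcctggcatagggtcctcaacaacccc
Gaa, the enzyme that breaks down lysosomal glycogen, had it once, 140 bases before the start (chr11:119267713-119268012, plus strand).
Gaa: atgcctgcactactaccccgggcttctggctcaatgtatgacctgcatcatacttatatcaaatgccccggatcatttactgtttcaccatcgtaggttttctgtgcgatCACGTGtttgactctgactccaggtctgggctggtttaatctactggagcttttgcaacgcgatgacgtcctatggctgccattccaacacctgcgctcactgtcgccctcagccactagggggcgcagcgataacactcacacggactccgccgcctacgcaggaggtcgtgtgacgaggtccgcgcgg
Gla, an alpha-galactosidase of glycolipids, had it at 227 and at 194 bases before the start (chrX:134600956-134601255, minus strand).
Gla: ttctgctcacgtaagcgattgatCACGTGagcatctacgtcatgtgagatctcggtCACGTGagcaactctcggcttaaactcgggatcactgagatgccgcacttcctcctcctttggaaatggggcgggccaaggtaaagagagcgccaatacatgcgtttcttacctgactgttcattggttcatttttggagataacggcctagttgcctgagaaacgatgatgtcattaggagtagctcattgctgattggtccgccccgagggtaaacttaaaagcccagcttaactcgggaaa
Neu1, the lysosomal sialidase, had no CACGTG in its window (chr17:34931003-34931302, plus strand).
Neu1: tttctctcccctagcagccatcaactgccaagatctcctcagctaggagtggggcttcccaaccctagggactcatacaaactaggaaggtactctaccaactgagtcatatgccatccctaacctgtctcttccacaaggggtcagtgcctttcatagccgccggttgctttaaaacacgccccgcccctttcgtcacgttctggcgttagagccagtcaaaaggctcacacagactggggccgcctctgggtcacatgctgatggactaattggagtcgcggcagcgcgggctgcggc
The windows of Hexa, Gusb and Fuca1 had none either. The longer motif TCACGTGA, which contains CACGTG, was found in 1 member and in 0.974% of all windows. A match or its absence describes these letters in this window.

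Control cultures of the 2 cell types differed in the transcripts of all 8 glycosidases, and 6 of these genes were lower in AECII. Hexa, the alpha subunit of the hexosaminidase that degrades GM2 ganglioside, had a log2 signal of 9.97 at its lowest, 10.14 at the median and 10.39 at its highest in AECII controls, against 11.59, 11.69 and 11.95 in PASMC controls. Every AECII control thus lay below every PASMC control. The log2 difference, AECII minus PASMC, was -1.60 (SE 0.081), a ratio of 0.329, with a limma adjusted p of 8.6e-22. Gaa ran from 11.41 over a median of 11.66 to 12.19 in AECII controls, against 12.75, 13.17 and 13.44 in PASMC controls, and differed by -1.39 (SE 0.12, limma adjusted p 2.6e-14). Glb1, the beta-galactosidase of ganglioside GM1, ran from 7.72 over 8.11 to 8.31 in AECII controls, against 8.90, 9.20 and 9.69 in PASMC controls, and differed by -1.22 (SE 0.11, limma adjusted p 1.7e-13). These were the members with the widest gaps, each with groups that did not overlap.

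The other members that were lower in AECII differed by less. Man2b1, the lysosomal alpha-mannosidase, averaged 9.04 ± 0.13 in AECII controls and 9.82 ± 0.17 in PASMC controls (SD, n = 8 each), a difference of -0.78. Fuca1, which removes fucose, averaged 9.90 ± 0.12 in AECII controls and 10.59 ± 0.17 in PASMC controls, a difference of -0.69. Gusb, the beta-glucuronidase of glycosaminoglycans, averaged 9.75 ± 0.048 in AECII controls and 10.24 ± 0.17 in PASMC controls, a difference of -0.49. All 3 were called by limma, with adjusted p of 9.1e-08, 2.2e-10 and 2.5e-07 in that order, and their groups did not overlap.

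Gla and Neu1 ran the other way and were higher in AECII. Gla ran from 13.20 over a median of 13.58 to 13.99 in AECII controls, against 12.52, 13.07 and 13.36 in PASMC controls, a difference of 0.56 (SE 0.16, limma adjusted p 0.0025). Neu1 ran from 10.29 over 10.66 to 11.06 in AECII controls, against 9.88, 10.31 and 10.57 in PASMC controls, a difference of 0.39 (SE 0.11, limma adjusted p 0.0028). For both genes the highest PASMC controls lay within the range of the AECII controls.

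Most genes separate these cell types: 59.2% of the 14775 genes tested were called, 27.9% as higher and 31.3% as lower in AECII, so a call alone is not particular to the glycosidases. Groups did not overlap for 6 of 8 members, against 28% of all genes. The median difference of the members was -0.73, against -0.044 for all genes. Fewer cells of a type and less RNA per cell cannot be told apart in these bulk samples. The macrophage, fibroblast and airway epithelial markers above were part of the cultures compared, and their part in the difference was not tested. Serum, isolation and passage differed along with cell type, so their part cannot be separated from that of cell type and was not tested. Without the 3 control PASMC arrays with Sftpc above 6, all 8 members were still called, with differences from -1.63 for Hexa to 0.47 for Neu1. The plot of the cell type difference shows the members split to both sides of 0.

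**Figure D1:**
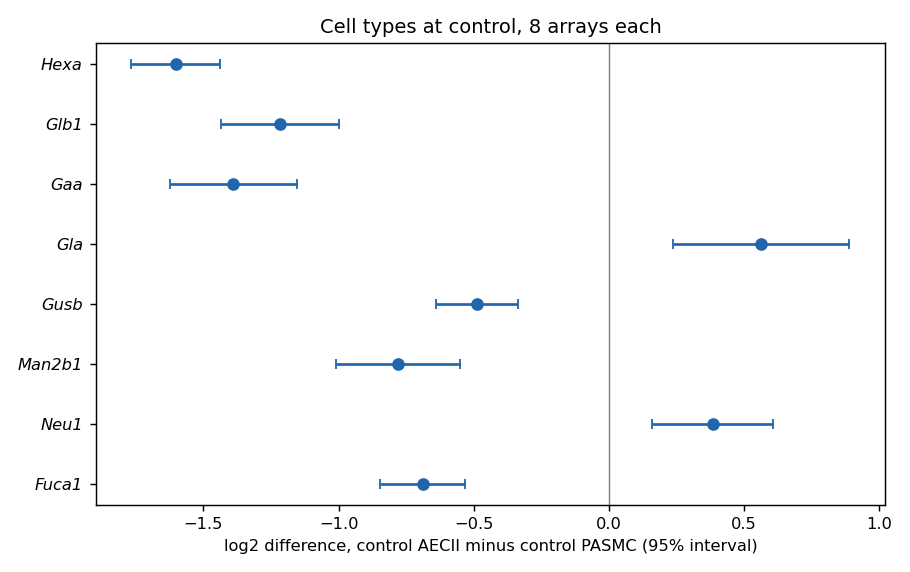
Log2 difference of each glycosidase between control AECII and control PASMC (AECII minus PASMC, 8 arrays each), with its 95% interval from limma. The 6 members left of 0, from Hexa at -1.60 to Gusb at -0.49, were lower in AECII, and Gla at 0.56 and Neu1 at 0.39 were higher.

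Sulfatases, activators and other lysosomal proteins were mostly called as lower in AECII, where 31.3% of all genes were called as lower and 27.9% as higher. The other lysosomal glycosidases were split: of 7 tested, 4 were called as lower and 3 as higher. Among the lower were Aga, which cuts the link between glycan and asparagine, at -1.96 and Naglu, which degrades heparan sulfate, at -1.32. Of 8 genes for sulfatases and their activating enzyme Sumf1, 7 were called as lower and none as higher, among them Arsa at -1.90 and Sumf1 at -1.18. Of 4 activators and carriers 3 were called as lower: Gm2a, the GM2 activator that works with Hexa, at -1.69, Psap, the saposin precursor, at -1.02, and Ctsa, the protective protein that holds Glb1 and Neu1 in a complex, at -1.29 (SE 0.087, limma adjusted p 1.9e-17). Of 16 other lysosomal proteins 13 were called as lower and none as higher, among them the proteases Ctsl at -1.56 and Ctsb at -1.40. Of 7 genes for TFEB, related factors and the folliculin complex, 6 were called as lower and none as higher, with a median of -0.50. Tagging and sorting genes did not share this direction, with 2 of 6 called, both as higher in AECII. These were Sort1, a sorting receptor, at 1.35 and M6pr, a mannose-6-phosphate receptor, at 0.24. Of 2 genes for sugar export and heparan acetylation 1 was called as higher and 1 as lower. Of 12 related glycosidases listed under other compartments 6 were called as lower and 2 as higher. This placing was by list, was not tested and may not hold for Man2b2.

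In PASMC, Neu1 had the largest difference of the members between exposed and control arrays, and it did not pass the test. With 18 mg extract its log2 signal was 9.65 at the lowest, 9.79 at the median and 10.32 at the highest. With 0 mg extract it was 9.71, 9.79 and 10.19, and in controls 9.88, 10.31 and 10.57. With 18 mg extract 6 of 8 arrays lay below the lowest control and with 0 mg extract 5 of 8, while the remaining arrays overlapped the controls. Arrays numbered 7 were the highest in both exposed groups.

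For the 18 mg extract the Neu1 difference from control was -0.43 (SE 0.11, 95% interval -0.67 to -0.20), a ratio of 0.740. Its unadjusted p was 0.00075 and its limma adjusted p 0.36. By p Neu1 ranked 28 of 14545 genes. For the 0 mg extract the difference was -0.45 (SE 0.11, 95% interval -0.68 to -0.22), a ratio of 0.731, with an unadjusted p of 0.00051 and a limma adjusted p of 1.00, and Neu1 ranked 7 of the same 14545 genes. Both comparisons use the same 8 controls, so they are not independent of each other. With both extracts set together against control, the difference was -0.44 (SE 0.097) with a limma adjusted p of 0.16. Without the PASMC arrays with Sftpc above 6 the difference was -0.41 for 18 mg, -0.35 for 0 mg and -0.38 for both extracts, with limma adjusted p of 0.94 to 1.00. Leaving out control replicate 2, the lowest control of Neu1, gave -0.50 for both extracts and a limma adjusted p of 0.037, below the threshold.

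Gusb and Hexa lay below the control mean in every exposed PASMC array, by less than Neu1. Gusb ran from 9.74 over a median of 10.06 to 10.14 with 18 mg extract and from 9.67 over 10.11 to 10.23 with 0 mg extract, against 9.97, 10.24 and 10.49 in controls. Hexa ran from 11.36 over 11.61 to 11.69 with 18 mg extract and from 11.40 over 11.62 to 11.73 with 0 mg extract, against 11.59, 11.69 and 11.95 in controls. The ranges overlapped for both genes. The Gusb difference was -0.22 for 18 mg (unadjusted p 0.023) and -0.19 for 0 mg (unadjusted p 0.047), and the Hexa difference was -0.18 (unadjusted p 0.025) and -0.15 (unadjusted p 0.059). None passed adjustment over all genes in limma, where the adjusted p was 1.00 each time. With the mean of all its 10 probes, Gusb differed by -0.13 for 18 mg (unadjusted p 0.13) and by -0.12 for 0 mg (unadjusted p 0.15). Without the arrays with Sftpc above 6, Gusb differed by -0.28 and -0.18 and Hexa by -0.15 and -0.12, with unadjusted p between 0.085 and 0.30. Gaa averaged 12.88 ± 0.22 with 18 mg extract, 12.93 ± 0.22 with 0 mg extract and 13.11 ± 0.23 in controls (SD, n = 8 each), differences of -0.23 and -0.18.

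The remaining members in PASMC showed smaller differences. With 18 mg extract Gla differed by -0.11, Glb1 by -0.090, Man2b1 by -0.084 and Fuca1 by -0.0028. With 0 mg extract Glb1 differed by -0.091, Man2b1 by -0.035, Fuca1 by 0.014 and Gla by 0.062. The interval of each included 0. Without the arrays with Sftpc above 6, the 18 mg difference of Gla was -0.34 (SE 0.21, unadjusted p 0.13, limma adjusted p 1.00), and with runs of 8 accessions as a block it was 0.034. In the plot of values by array the exposed and control points of these genes overlie each other.

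**Figure D2:**
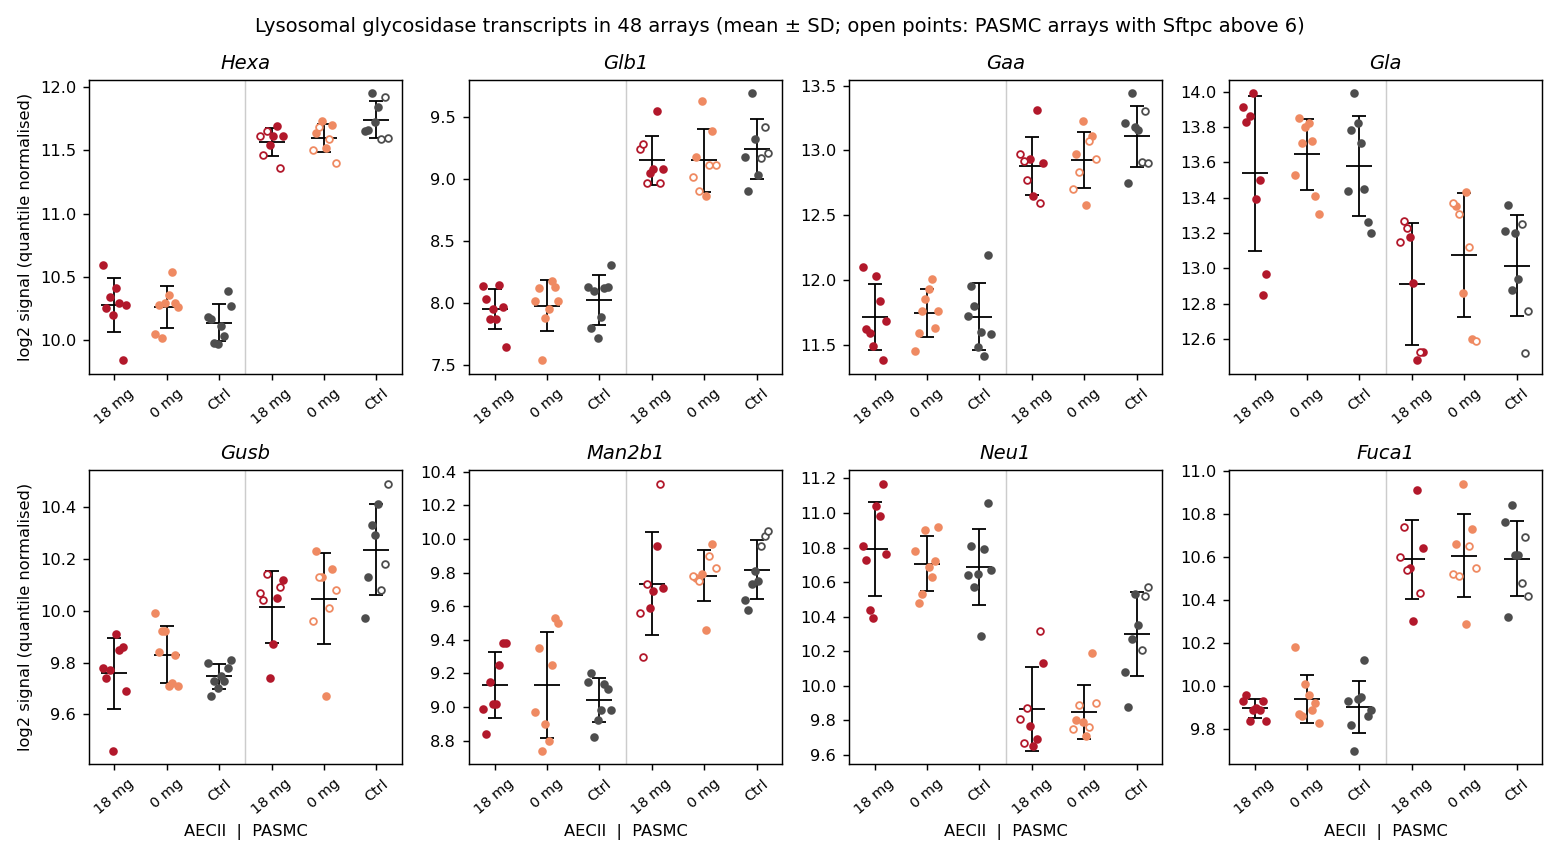
Log2 signal (quantile normalised, vertical axis) of each glycosidase in all 48 arrays, by cell type and condition, with mean and SD of 8 arrays. Open points are PASMC arrays with Sftpc above 6. PASMC points lie above AECII points for Hexa, Glb1 and Gaa without overlap, and the Neu1 means in PASMC are 9.87 with 18 mg extract, 9.85 with 0 mg extract and 10.30 in controls.

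Counted over the set, 0 of 8 members were called for the 18 mg extract in PASMC, where 0.0275% of genes were called, and 0 of 8 for the 0 mg extract, where 0% were. At an unadjusted p under 0.05, 3 of 8 were lower with 18 mg extract, against 2.39% of genes, and 2 of 8 with 0 mg extract, against 1.66%. All 8 differences were below 0 with 18 mg extract, against 48.2% of genes, and 6 of 8 with 0 mg extract, against 48.7%. The median difference of the members was -0.14 for 18 mg and -0.12 for 0 mg, where the median of all genes was 0.0066 and 0.0038. With both extracts together, 0 of 8 members were called, against 0.0206% of genes, 7 of 8 were below 0, against 49.2%, and 3 of 8 were lower at an unadjusted p under 0.05, against 2.32%. These 3 were Neu1, Gusb at -0.20 (unadjusted p 0.015) and Hexa at -0.16 (unadjusted p 0.019). Without the arrays with Sftpc above 6, Man2b1 turned to 0.038 for 18 mg and 0.045 for 0 mg, Glb1 to 0.041 for 0 mg and Gla to -0.059 for 0 mg. In that refit the unadjusted limma p of Neu1 was 0.030 for 18 mg and 0.058 for 0 mg. For Gusb it was 0.085 and 0.26, and for Hexa 0.18 and 0.30. The counts at an unadjusted p under 0.05 thus depend on these arrays.

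A difference by nicotine content was not detected for the glycosidases in PASMC. With 18 mg against 0 mg extract the differences ran from -0.17 for Gla (95% interval -0.50 to 0.17) to 0.017 for Neu1 (95% interval -0.21 to 0.25), and 0 of 8 were called, against 0% of genes. At an unadjusted p under 0.05 there were also 0 of 8, against 1.94% of genes.

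In AECII no glycosidase passed the test against control, and exposed and control ranges overlapped for all 8. With 18 mg extract the differences ran from -0.068 for Glb1 to 0.14 for Hexa, 4 above 0 and 4 below, and with 0 mg extract from -0.044 for Glb1 to 0.12 for Hexa, 7 above 0. In both comparisons 0 of 8 were called, against 0% of genes, and 0 of 8 had an unadjusted p under 0.05, against 2.36% of genes for 18 mg and 3.32% for 0 mg. Hexa ran from 9.84 over a median of 10.29 to 10.59 with 18 mg extract and from 10.02 over 10.28 to 10.54 with 0 mg extract, against 9.97, 10.14 and 10.39 in controls. Neu1 averaged 10.79 ± 0.27 with 18 mg extract, 10.71 ± 0.16 with 0 mg extract and 10.69 ± 0.22 in controls (SD, n = 8 each), and the interval of its difference reached from -0.13 to 0.34 for 18 mg. The -0.43 seen in PASMC had an interval of its own, from -0.67 to -0.20, and both responses are compared directly below. In AECII, 18 mg against 0 mg extract gave differences from -0.11 for Gla to 0.084 for Neu1, with 0 of 8 called, against 0% of genes. At an unadjusted p under 0.05 there were also 0 of 8, against 3.09% of genes. For both extracts together Hexa differed by 0.13 (unadjusted p 0.12), and 0 of 8 members had an unadjusted p under 0.05, against 2.83% of genes.

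**Figure D3:**
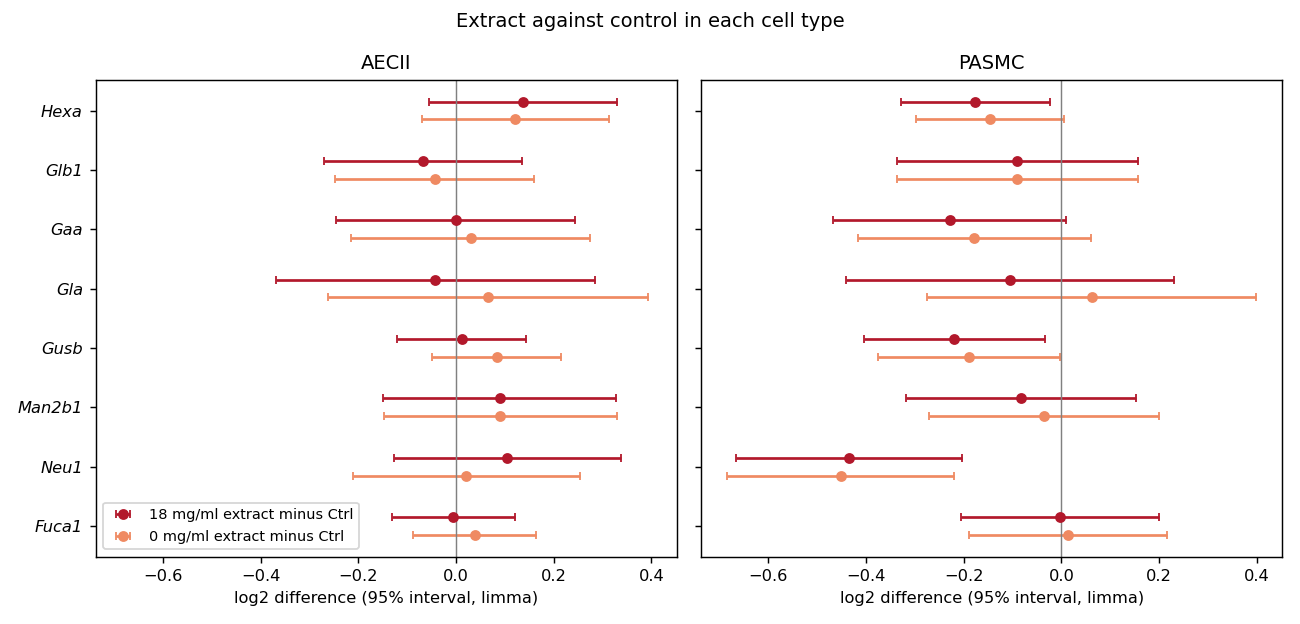
Log2 difference from control of each glycosidase with 18 mg and with 0 mg extract, in AECII and in PASMC, with 95% intervals from limma (8 arrays per group; both extracts share the controls). In AECII every interval includes 0. In PASMC both Neu1 intervals lie below 0, as do both of Gusb and the 18 mg interval of Hexa, before adjustment over all genes.

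The difference between the responses of the cell types was tested directly. For the 18 mg extract the response of AECII minus that of PASMC was 0.54 for Neu1 (SE 0.16, unadjusted p 0.0013), 0.31 for Hexa (unadjusted p 0.0089) and 0.23 for Gusb (unadjusted p 0.034). For the 0 mg extract it was 0.47 for Neu1 (unadjusted p 0.0044), 0.27 for Gusb (unadjusted p 0.014) and 0.27 for Hexa (unadjusted p 0.024). In limma all had an adjusted p of 1.00, so a difference in response was not established for any member. At an unadjusted p under 0.05, 3 of 8 members were higher for each extract, against 1.79% of genes for 18 mg and 1.41% for 0 mg. Called were 0 of 8, against 0%. Under other settings of the processing the unadjusted limma p for 18 mg reached 0.070 for Gusb and stayed under 0.05 for Neu1 and Hexa. For 0 mg it reached 0.057 for Gusb, 0.10 for Hexa and 0.064 for Neu1.

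Other genes of the lysosome in PASMC lay mostly on the same side of 0, and 1 of them passed the test. Ctsk, the collagen-degrading cathepsin K, fell by 0.70 on the log2 scale with 18 mg extract (SE 0.13, limma adjusted p 0.043), with all 8 exposed arrays below all 8 controls. This call was lost in limma with only the arrays compared, where no gene was called, with the replicate number as a block (adjusted p 0.17), with runs of 8 accessions as a block (0.065), without the arrays with Sftpc above 6 (-0.66, adjusted p 0.80) and with the mean of the macrophage markers as a covariate (0.062). With 0 mg extract Ctsk differed by -0.53 (limma adjusted p 1.00). Of the 16 other lysosomal proteins, 15 were below 0 with 18 mg extract and 14 with 0 mg, with list medians of -0.21 and -0.13. Most marker lists of cell types also lay mainly to one side of 0 with 18 mg extract. Of 10 macrophage markers 8 were below 0 (median -0.14), and 9 of 10 smooth muscle markers were above 0 (median 0.24). With 0 mg extract 5 of 10 macrophage markers were below 0 (median -0.038) and 8 of 10 smooth muscle markers above 0 (median 0.13). Of 8 tested type II cell markers 6 were above 0 with either extract, with medians of 0.20 and 0.18. All 3 tested endothelial markers were below 0 with either extract, with medians of -0.24 and -0.13. Of 6 fibroblast markers 5 were below 0 with 18 mg extract and 2 with 0 mg. Of 4 airway markers 2 were below 0 with either extract. No marker was called. With the mean of the macrophage markers as a covariate, chosen after seeing the data, Neu1 differed by -0.43 for 18 mg and -0.45 for 0 mg. Neu1 was not called there (limma adjusted p 0.36 for 18 mg). Some of these markers were near background in PASMC, so the part of macrophages cannot be separated this way. The parts of the smooth muscle and other marker lists were not tested.

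Among genes that act directly on the glycosidases none was called. Ctsa ran from 13.22 over a median of 13.47 to 13.76 with 18 mg extract and from 13.30 over 13.57 to 13.79 with 0 mg extract, against 13.57, 13.84 and 13.97 in controls. All 8 exposed arrays of each extract lay below the control mean of Ctsa. Its difference was -0.33 for 18 mg (limma adjusted p 0.36) and -0.25 for 0 mg (limma adjusted p 1.00). Gnptg, a subunit of the enzyme that starts the mannose-6-phosphate tag, differed by -0.37 with 18 mg (limma adjusted p 0.38) and by -0.40 with 0 mg extract (limma adjusted p 1.00).

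The share of all genes below 0 was 48.2% with 18 mg extract and 48.7% with 0 mg, with medians of 0.0066 and 0.0038. By list, 4 of 4 activators and carriers were below 0 with 18 mg extract and 3 of 4 with 0 mg, with medians of -0.21 and -0.13. Of 7 other lysosomal glycosidases 5 were below 0 with either extract, with medians of -0.19 and -0.20, and Aga differed by -0.29 and -0.31. Of 8 sulfatase genes 7 and 5 were below 0, with medians of -0.25 and -0.090. Of 6 tagging and sorting genes 5 and 4 were below 0, with medians of -0.11 and -0.097. Of 7 genes of the TFE factors and folliculin, which holds these factors out of the nucleus, 4 and 5 were below 0, with medians of -0.17 and -0.070, and none was called. The 3 with the smallest p, Fnip2, Fnip1 and Flcn, differed by -0.57, -0.42 and -0.38 with 18 mg extract. Of 11 tested glycosidases of other compartments 3 were below 0 with 18 mg extract and 4 with 0 mg, with medians of 0.049 and 0.043. With runs of 8 accessions as a block, 6 of these 11 were below 0 with 18 mg extract, with a median of -0.0070. With 0 mg extract 4 were below 0 under this block, with a median of 0.042. Without the arrays with Sftpc above 6, the median for 18 mg was -0.020 for the other lysosomal glycosidases, -0.35 for the TFE list and -0.31 for the activators and carriers. For 0 mg these medians were -0.17, -0.11 and -0.17. In that refit 45.5% of all genes were below 0 for 18 mg and 46.8% for 0 mg, with medians of 0.027 and 0.013. In AECII no gene of these lists was called for either extract.

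**Figure D4:**
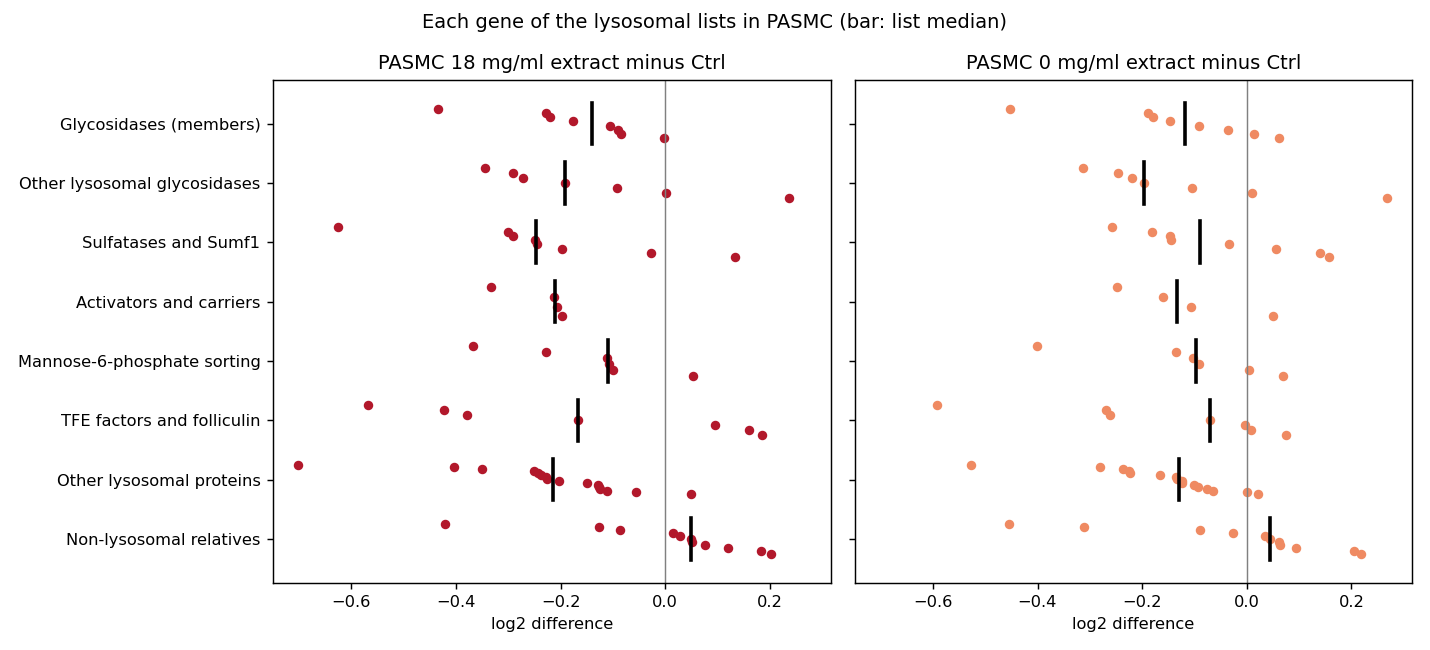
Log2 difference from control in PASMC of every tested gene of the lysosomal lists, 1 point per gene, with 18 mg and with 0 mg extract (8 arrays per group; both share the controls). Black bars are list medians: -0.14 and -0.12 for the 8 glycosidases, -0.21 and -0.13 for other lysosomal proteins, 0.049 and 0.043 for the glycosidases of other compartments.

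Ordered by mean over the 6 groups, Hexa, Glb1, Gaa and Fuca1 had all 3 PASMC groups above all 3 AECII groups. For these genes the lowest PASMC group did not overlap the highest AECII group. The share of all genes with such an order was not counted, so it cannot be called particular to these members. Between the controls alone, groups did not overlap for 28% of all genes. Gusb and Man2b1 had the same order of cell types, with overlap at that step. Gla and Neu1 had all 3 AECII groups on top, and every neighbouring pair overlapped. Within a cell type every pair of neighbours in the order overlapped, for all 8 members.

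From array to array the glycosidases did not vary as 1 unit. Over the 24 arrays of a cell type, each centred on its group mean, the 28 pairs of members had Pearson correlations from -0.60 to 0.74 in AECII, with a median of 0.055, and from -0.67 to 0.93 in PASMC, with a median of 0.12. The medians over all gene pairs were 0.0049 and 0.0025. Of the 28 pairs 17 were above 0 in AECII and 20 in PASMC, against 50.7% and 50.3% of all gene pairs. In PASMC the highest were Gaa with Fuca1 (0.93), Glb1 with Gaa (0.84) and Glb1 with Fuca1 (0.83). Gla was negative with every other member there, from -0.67 with Man2b1 to -0.21 with Hexa. These correlations describe arrays that share a normalisation and differ in their mix of cells. The genes most like the mean of the 8 members were Coprs (r = 0.82), Degs1 (0.80), Alkbh7 (0.79), Dusp4 (0.78) and Sptbn1 (0.77) among 14467 genes in AECII. In PASMC they were Cd248 (r = 0.91), Hsd3b7 (0.90), Lrig3 (0.90), Plscr3 (0.90) and Tns2 (0.89) among 14530 genes.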

How the data were processed

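Total RNA was hybridised to single-colour (Cy3) arrays. The deposited log2 values were made by the authors, and the submitters' processing notes name limma, without version or step. Quantiles coincide between arrays of both cell types (median 2.97 to 2.98, highest value 15.89), so the values are quantile normalised, and a shift of all genes between groups would not show. The log2 matrix has 62976 features and 28 missing values. Of the features 31465 carry a gene name, 29036 of them matched by accession to the RefSeq gene table.

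Genes were tested if their mean over the arrays fitted exceeded 2.73, the 30th percentile of named features, which left 14477 in AECII, 14545 in PASMC and 14775 for both. The models were fitted with limma 3.58.1 (R 4.3.3; lmFit, eBayes) with 1 coefficient per group, on the 24 arrays of a cell type or on all 48. Tests were two-sided, Benjamini-Hochberg adjusted within each of 11 comparisons, and called at an adjusted p under 0.05. The script was tested on simulated data. Genes within 1 log2 unit of the array median are called near background.

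The members and lists were chosen with earlier results of these data known, so lists are described by counts and medians. Named are all members, up to 4 called genes of a list (in a list without calls, up to 3 by p), 5 genes of like pattern, and Sftpc, Acta2, Marco and Lyz2. Results were recomputed with blocks (replicate number, or consecutive accessions in 8s), other filters, median centring, array weights, a trended variance, other sets of arrays, averaged probes, and each array left out in turn. Refits of the lists and the macrophage covariate were chosen after seeing the data.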

Additional observations from a re-analysis of the deposited data

Results flagged for a closer look

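Of the 48 groups of 8 values (8 genes in 6 groups), 3 held an array far from the rest, where chance gives such an array in about 1 group in 20. Glb1 in AECII with 0 mg extract had its lowest value, 7.54, in replicate 3, while the other arrays lay between 7.88 and 8.18. Man2b1 in PASMC with 0 mg extract had its lowest value, 9.46, in replicate 5, with the others between 9.75 and 9.97. Neu1 in PASMC with 0 mg extract had its highest value, 10.19, in replicate 7, with the others between 9.71 and 9.90.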

How the results depend on the processing

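Across the other settings the number of members called stayed the same in 122 of 123 values, with all 8 called between the cell types at control in each. The exception was array weights, which called 1 member for both extracts in PASMC: Neu1, at -0.48 (limma adjusted p 0.020). With each array left out in turn, 0 to 1 members were called in that comparison, and all 8 between the cell types. Reversed values were small: with runs of 8 accessions as a block, 0.098 for Gla and -0.011 for Gusb (AECII, 18 mg), 0.023 for Gla (AECII, 18 against 0 mg), 0.034 for Gla (PASMC, 18 mg) and -0.037 for Neu1 (PASMC, 18 against 0 mg). Median centring gave 0.011 for Fuca1 (PASMC, 18 mg), and the mean of all probes gave 0.11 for Fuca1 (AECII, 18 mg) and -0.094 for Gaa (AECII, 0 mg). Without PASMC arrays with Sftpc above 6, Man2b1 was 0.038 (18 mg) and 0.045 (0 mg), Glb1 0.041 and Gla -0.059 (0 mg), and Neu1 -0.061 (18 against 0 mg). With the mean of the macrophage markers as a covariate, chosen after seeing the data, Gaa was 0.020 (AECII, 18 mg). The cause was not tested.

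Leaving out each array in turn turned the sign of small differences only. In AECII with 18 mg the values ran from -0.056 to 0.068 for Gaa, -0.11 to 0.056 for Gla, -0.0096 to 0.054 for Gusb and -0.034 to 0.025 for Fuca1. In AECII with 0 mg the values ran from -0.088 to 0.019 for Glb1, -0.014 to 0.098 for Gaa and -0.035 to 0.074 for Neu1. In PASMC with 18 mg the values ran from -0.048 to 0.039 for Fuca1. In PASMC with 0 mg the values ran from -0.0086 to 0.13 for Gla, -0.069 to 0.010 for Man2b1 and -0.035 to 0.059 for Fuca1. In PASMC with 18 against 0 mg the values ran from -0.048 to 0.066 for Neu1. The genes called ran from 1 to 4 for 18 mg in PASMC, from 0 to 1 for 0 mg and from 1 to 9 for both extracts, the 9 without control replicate 2.

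The replicate numbers were not taken as pairs, since no pair of groups had every same-numbered correlation over 0.1; between PASMC with 18 mg and with 0 mg extract 5 of 8 were, with a median of 0.14. With the replicate number as a block, the Neu1 difference for both extracts in PASMC stayed at -0.44 (limma adjusted p 0.065). With this block it was -0.43 for 18 mg (SE 0.080, limma adjusted p 0.17) and -0.45 for 0 mg (SE 0.080, limma adjusted p 0.33). The SE was smaller than without the block, and Neu1 was still not called. The genes called in PASMC for 18 mg numbered 4, against 0 with either block, without the Sftpc arrays or with only the arrays compared, 1 without a filter, with all probes or with the macrophage covariate, 8 at the 50th percentile and 13 with array weights. For both extracts they numbered 3, against 1 with the replicate block or no filter, 6 at the 50th percentile or with all 48 arrays, 17 with array weights and 0 without the Sftpc arrays. Array weights gave 1 gene for 0 mg and 1 for the difference in response to 18 mg, where 0 were called. The 8 arrays per group limit the precision.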

Other observations

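Gla varied with the replicate number more than other glycosidases. Of its variance within groups, 70.6% lay between the replicate numbers of the titles, against 52.9% for Man2b1, 43.0% for Neu1 and 2.92% to 18.0% for the other members, where the median of all genes was 18.3%. Only 57 of 14766 genes had a higher share than Gla. Between the consecutive runs of 8 arrays used as a block above, the share was 69.5% for Gla, 43.8% for Man2b1 and 34.5% for Neu1. The median of all genes was 11.3% there. The replicate numbers rise along these runs, so the 2 cannot be fully told apart. The arrays numbered 7 and 8 were the lowest pair for Gla in 5 of 6 groups, and the highest pair for Man2b1 in 3 groups and for Neu1 in 2. In AECII with 18 mg extract, Gla was 12.85 and 12.97 in these arrays, where the others lay between 13.39 and 13.99. What the numbers stand for is not given in the sources used here, and this look at them was chosen after seeing the data.

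Among the related lists, CACGTG lay in the window of RefSeq's promoter table for 3 of 8 members, 1 of 6 other lysosomal glycosidases, 1 of 7 genes of the TFE factors and folliculin, 0 of 1 gene for sugar export and heparan acetylation, 3 of 7 sulfatase genes, 3 of 4 tagging and sorting genes, 1 of 4 activators and carriers (Ctsa), 4 of 13 other lysosomal proteins and 0 of 11 glycosidases of other compartments, counting genes with a window in the table, against 7.15% of all windows. These counts have no test, and not every window lies at the gene start, as for Man2b1.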
